A study of Mus musculus with 8 samples.

Results

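The genes for the subunits of oxidative phosphorylation were followed in mouse small intestine on 8 Agilent arrays that compare 2 RNAs labelled with different dyes. A gene was a member when its name in the annotation of the day 3 arrays had the form Nduf followed by a, b, c, s or v and a digit, Cox4 to Cox8 followed by a, b or c, Atp5 or Uqcr with any ending, or was Sdha, Sdhb, Sdhc, Sdhd, Cycs or Cyc1. This gave 80 of the 27845 gene names on the array, carried by 112 of its 41174 probes, and each gene was read by its brightest probe. By role, 34 members belong to complex I, 4 to complex II, 8 to complex III, 15 to complex IV and 15 to complex V, Cycs is cytochrome c, and 3 are related proteins that the name pattern also takes in. Those 3 are Cox7a2l, a factor that links complexes III and IV into supercomplexes, Atp5s, and Ndufa12l, an assembly factor of complex I now called Ndufaf2. Ndufa4 was counted to complex IV, where it is now placed. Subunits whose names lie outside the pattern, such as Cox4i1 and Ndufab1, were no members, and neither was Uqcr10, which the array lists under an older clone name.

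The arrays hold 2 comparisons. In the first, epithelial cells of Lgr5-EGFP-ires-CreERT2 mice, in which the promoter of the stem cell gene Lgr5 drives GFP, were sorted into a fraction bright for GFP (GFPhi) and a fraction dim for GFP (GFPlo), in 2 sorts that each pooled 3 mice. In the second, small intestinal epithelium of Ah-Cre/Ascl2 floxed/floxed animals, which lose the transcription factor Ascl2 after induction of Cre, was set against that of Ah-Cre/Ascl2 floxed/wt animals 3 and 5 days after induction. Those controls carry Cre and 1 floxed allele, although the titles call them wildtype, and how many animals stand behind each day is not stated in the labels. Each of the 4 RNA pairs (sort 1, sort 2, day 3, day 5) was hybridised to 2 arrays with the dyes exchanged, so both arrays of a pair are 1 replicate, and each pair has a slide of its own. The values below are log2 ratios, GFPhi over GFPlo or deleted over control, where -1 stands for a 2-fold lower level.

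Oxidative phosphorylation is carried out in the inner mitochondrial membrane. Electrons from NADH enter at complex I and those from succinate at complex II, pass through complex III and cytochrome c, and reach oxygen at complex IV, while the protons pumped on the way drive ATP synthesis at complex V. Nearly all subunits of these machines are encoded in the nucleus, and some subunits of complex IV exist as a common isoform and one restricted to muscle or testis. In the intestine, stem cells at the base of the crypt give rise to dividing progenitors and then to enterocytes, which take up nutrients and are rich in mitochondria.

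The targeted gene and the gene used for sorting were read first. Ascl2 was at -1.33 on day 3 and -1.32 on day 5 in deleted over control tissue, and Lgr5 at 2.10 and 1.61 in GFPhi over GFPlo cells of sorts 1 and 2. Over the arrays, 55.0% to 66.9% of spots were well above background in the deletion and 35.5% to 44.6% in the sorts. Of the members, 77 were tested in the sorts, beside 10473 genes in all, and 78 in the deletion, beside 15997 genes. Those tested were well above background in both RNAs on all 4 arrays of their comparison, and none was saturated. The untested ones were Cox8b and Cox8c, isoforms of muscle and testis, which were above background on no array, and in the sorts also Cox6a2, an isoform of heart and skeletal muscle. The probes of the members were bright, with a median mean log2 intensity of 14.42, above 98.6% of all gene probes.

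In GFPhi against GFPlo cells the subunit genes lay close to equal, with a small shift towards lower values in the GFPhi cells. The median of the 77 members was -0.12 in sort 1 and -0.077 in sort 2, against 0.012 and -0.0019 for all genes tested, and 55 members had a mean below 0. The median over both sorts, -0.097, was -0.17 with the processed signals of the scanner software and -0.29 with median centring in place of loess. With median centring sort 1 gave 0.025 for the members and 0.11 for all genes, and sort 2 gave -0.58 and -0.12. With loess the middle of the spread is narrow: 60 members had a mean within 0.25 of 0 on the log2 scale and none reached a 2-fold difference. On all 4 arrays 20 members (26.0%) were lower in GFPhi cells, beside 17.2% of all genes tested, and 6 members (7.79%) were higher, beside 16.5%. In limma's test over all 4 RNA pairs no member passed an adjusted p of 0.05, and neither did any other gene (0% of the genes tested). At an unadjusted p under 0.05 in that test stood 12 of 77 members, 11 of them lower in GFPhi cells, beside 531 of 10473 genes. The smallest adjusted p of a member was 0.644. Fitted without the deletion arrays, whose 2 days add to the shared spread (median SD over genes 0.195, against 0.0811 between the sorts), 1 member passed, beside 0.63% of all genes. That member was Cox7a1.

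**Figure D1:**
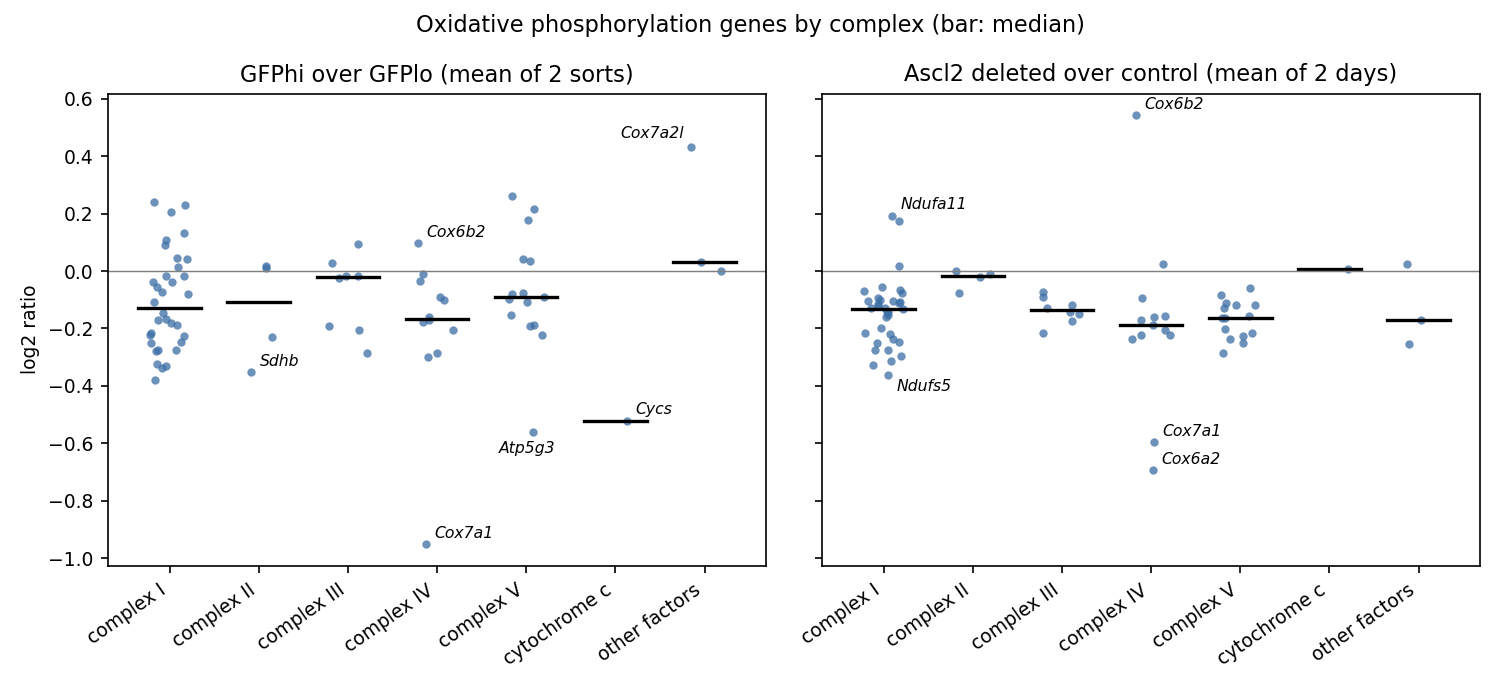
Each point is the mean log2 ratio of 1 oxidative phosphorylation gene, GFPhi over GFPlo cells on the left and Ascl2 deleted over control on the right, grouped by complex, with a bar at the median of the group. Most points lie within 0.4 of 0, and the far ones are Cox7a1, Cycs, Atp5g3 and Cox7a2l in the sorts and Cox6a2, Cox7a1 and Cox6b2 in the deletion.

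The largest difference among the members was that of Cox7a1, the isoform of complex IV subunit 7a typical of heart, skeletal muscle and brown fat, whose probe lies at chr7:29894078-29894689 (mm8, plus strand). In sort 1 it was at -1.17 and -0.95 on the arrays with GFPhi cells in Cy3 and in Cy5, and in sort 2 at -0.97 and -0.71. All 4 arrays were thus low, and the sorts differed by about as much as the dye orientations within each sort. The mean of -0.95 (SE 0.14, 2 sorts) is a 1.93-fold lower level in GFPhi cells, with an adjusted p of 0.644 in limma's fit of all RNA pairs and 0.0267 with the sorts fitted alone. Its common partner Cox7a2 was lower by less, at -0.34 and -0.26 in the 2 sorts, and a second probe of Cox7a2 gave -0.31 and -0.24. Cox7a2l, whose name resembles theirs and which serves supercomplex formation, went the other way, with 0.62, 0.46, 0.54 and 0.11 on the 4 arrays and a mean of 0.43 (SE 0.13, adjusted p from limma 0.822). Within the Cox7a names the means of the 3 genes thus ran from -0.95 to 0.43.

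Cytochrome c itself, Cycs, the small carrier between complexes III and IV, was the second lowest of the members with 1 sign on all 4 arrays. Its brightest probe read -0.57 and -0.51 in sort 1, and -0.056 and -0.94 in sort 2, where the dye orientations lay far apart. The mean was -0.52 (SE 0.099), and the other 2 probes of Cycs also lay below 0, at -0.11 in sort 1 and at -0.43 and -0.46 in sort 2. Without the RNA pair of day 3, or without that of day 5, Cycs and Cox7a1 both had an adjusted p under 0.05 in limma's test (0.0466 and 0.0304), 2.6% of the members beside 1.22% of all genes.

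**Figure D2:**
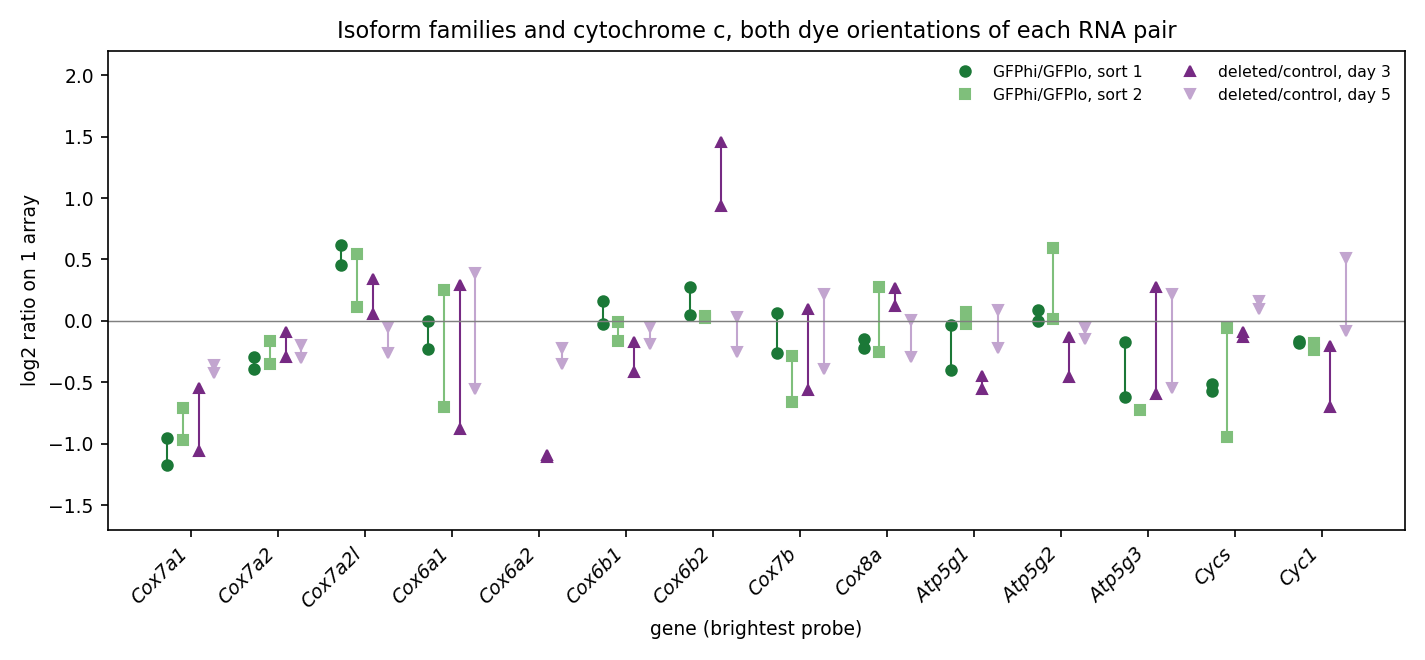
Log2 ratios of isoform families of complexes IV and V and of cytochromes c and c1 on single arrays, where the line joins the 2 dye orientations of an RNA pair. Cox7a1 lies below 0 on all 8 arrays, Cox6b2 stands above 0.9 on both day 3 arrays, and Cox6a2 lies near -1.1 there.

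Other complex IV subunits were closer to 0. The 12 tested members of the complex had a median of -0.11 in both sorts, with 10 of 12 below 0 in each. Cox7b was at -0.097 and -0.47, Ndufa4 at -0.031 and -0.32, Cox5a at -0.28 and -0.13, Cox5b at -0.28 and -0.048, Cox6a1 at -0.12 and -0.23 and Cox6c at -0.11 and -0.099. Cox6b1, Cox7c and Cox8a had means of -0.011, -0.036 and -0.089. Cox6b2, the testis isoform of subunit 6b, was the only one with 4 values above 0, from 0.024 to 0.27, and its probe was dim. None of these passed the test.

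In complex I, 11 of 34 members were below 0 on all 4 sort arrays, beside 26.0% of all members tested and 17.2% of all genes. The median of the complex was -0.13 in sort 1 and -0.071 in sort 2. The lowest were accessory subunits: Ndufb6 at -0.31 and -0.45, Ndufc1 at -0.36 and -0.32, Ndufa8 at -0.32 and -0.34, and Ndufs5 at -0.29 and -0.35. All 4 were low in both sorts. Accessory subunits were also the only members of the complex above 0 on all 4 arrays, Ndufa2 at 0.13 and 0.35 and Ndufa7 at 0.15 and 0.25, and 2 further probes of Ndufa7 and Ndufa8 gave the same sign as the first. The 7 core subunits, which hold the electron path, had a median of -0.11 and -0.077. Of them Ndufs1 and Ndufv2 had means of -0.23 and -0.18.

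In complex II the iron-sulfur subunit Sdhb was at -0.20 and -0.50 and the membrane anchor Sdhd at -0.18 and -0.28, below 0 on all 4 arrays. The flavoprotein Sdha and the other anchor Sdhc had means of 0.016 and 0.012. Complex III had a median of -0.077 in sort 1 and -0.0073 in sort 2: Uqcrb had a mean of -0.28, the Rieske protein Uqcrfs1 one of -0.20 over 3 arrays, since 1 spot of sort 2 was left out, cytochrome c1 (Cyc1) one of -0.19 with 4 values between -0.24 and -0.17, and Uqcr 0.096.

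In complex V the 3 genes for the c subunit of the membrane ring separated. They encode the same mature protein behind different targeting sequences. Atp5g3 was at -0.40 in sort 1 and -0.73 in sort 2, where 1 array was left out because its spot was marked as an outlier. Atp5g2 was at 0.044 and 0.31, with a second probe at 0.17 and 0.48, and Atp5g1 at -0.22 and 0.023. The mean of Atp5g3 was -0.56 (SE 0.11, adjusted p from limma 0.644), and 3 of 3 arrays were below 0. Atp5l, subunit g of the membrane part, was above 0 on all 4 arrays with a mean of 0.26, and Atp5k, subunit e, below 0 on all 4 with a mean of -0.22. The catalytic Atp5b and Atp5a1 had means of -0.19 each, and a second probe of Atp5a1 gave the opposite sign. Probes of 1 gene disagreed in sign in the sorts for 2 of the 19 members with more than 1 tested probe, Atp5a1 and Sdha.

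The start regions of 5 of these genes are shown because their ratios span the range in the sorts: Cox7a1 and Cycs at the low end, Cox7a2 and Ndufs5 between, and Cox7a2l at the high end. Each runs from 250 bases before to 50 after the RefSeq start (GRCm38.p6, reading the strand of the gene), in lower case, with capitals for matches to the motifs named below.
Cox7a1 (chr7:30183921-30184220, plus): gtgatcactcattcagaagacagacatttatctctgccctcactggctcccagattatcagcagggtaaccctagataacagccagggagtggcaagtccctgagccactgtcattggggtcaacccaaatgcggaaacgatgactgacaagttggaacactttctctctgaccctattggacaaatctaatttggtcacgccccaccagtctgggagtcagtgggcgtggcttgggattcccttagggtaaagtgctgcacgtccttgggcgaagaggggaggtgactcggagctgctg
Cox7a2 (chr9:79759804-79760103, minus): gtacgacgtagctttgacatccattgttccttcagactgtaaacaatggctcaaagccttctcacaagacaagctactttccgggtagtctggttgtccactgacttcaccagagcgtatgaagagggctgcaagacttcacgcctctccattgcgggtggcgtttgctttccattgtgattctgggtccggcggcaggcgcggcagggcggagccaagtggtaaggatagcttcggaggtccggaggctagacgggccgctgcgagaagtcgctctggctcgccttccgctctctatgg
Cox7a2l (chr17:83514284-83514583, minus): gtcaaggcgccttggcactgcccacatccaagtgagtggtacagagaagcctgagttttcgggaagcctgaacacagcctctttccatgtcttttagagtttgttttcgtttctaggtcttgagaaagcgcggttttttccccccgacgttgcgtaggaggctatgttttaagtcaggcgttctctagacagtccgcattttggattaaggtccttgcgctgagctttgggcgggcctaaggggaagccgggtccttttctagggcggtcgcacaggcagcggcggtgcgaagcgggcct
Cycs (chr6:50566520-50566819, minus): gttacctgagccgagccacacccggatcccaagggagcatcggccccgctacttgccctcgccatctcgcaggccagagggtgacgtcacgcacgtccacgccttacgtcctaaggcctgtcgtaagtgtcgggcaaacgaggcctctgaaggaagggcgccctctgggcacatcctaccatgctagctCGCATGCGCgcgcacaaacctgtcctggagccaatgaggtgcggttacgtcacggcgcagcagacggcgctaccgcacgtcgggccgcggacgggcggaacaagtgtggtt
Ndufs5 (chr4:123718137-123718436, minus): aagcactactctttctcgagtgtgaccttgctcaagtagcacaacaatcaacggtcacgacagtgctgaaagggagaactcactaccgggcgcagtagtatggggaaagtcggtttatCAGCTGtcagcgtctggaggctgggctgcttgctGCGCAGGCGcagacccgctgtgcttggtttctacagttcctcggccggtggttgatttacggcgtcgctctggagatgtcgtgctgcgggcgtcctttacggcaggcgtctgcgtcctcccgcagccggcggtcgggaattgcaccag

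The letters searched on both strands were those known from genes of the respiratory chain, and 2 E-boxes of the kind that basic helix-loop-helix proteins such as Ascl2 and Myc recognise. Of the 80 members, 66 had an entry in RefSeq's promoter table. The NRF1 core GCGCANGCG stood in the promoter of 21 of 66 members (31.8%), beside 7.03% of 27025 genes. The ETS core CCGGAAG stood in 24.2% of members and 9.93% of all genes, and the YY1 core AAGATGGCG in 10.6% and 1.64%. The ERR site TNAAGGTCA was found in 3 members (4.55%, beside 1.43%), the E-box CAGCTG in 6 (9.09%, beside 18.3%) and the E-box CACGTG in 6 (9.09%, beside 8.09%). Members and all genes differed in base composition too, with a median GC content of 57.7% and 52.7%. Cycs has 1 NRF1 match, Ndufs5 an NRF1 match and a CAGCTG, and these letters do not occur in the windows of Cox7a1, Cox7a2 and Cox7a2l. The 21 members with an NRF1 match had a median of -0.15 in the sorts and -0.14 in the deletion, and the other 45 had -0.094 and -0.16, a description with no test.

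After deletion of Ascl2 the subunit genes again lay slightly low. Their median was -0.18 on day 3 and -0.12 on day 5, a level 1.13-fold and 1.09-fold lower in deleted tissue, against 0.0036 and -0.0065 for all genes tested, and 70 of 78 members had a mean below 0. The median over both days, -0.14, was -0.33 with median centring, beside -0.083 for all genes. On all 4 arrays 19 members (24.4%) were lower, beside 13.3% of all genes, and 1 member (1.28%) was higher, beside 12.6%. No member and no other gene passed limma's test in the fit of both days (0% of the genes tested), with a smallest adjusted p of 0.457 for a member. At an unadjusted p under 0.05 in that fit stood 6 of 78 members, all 6 lower, beside 1544 of 15997 genes. The share of members was thus not above that of all genes. When day 5 was left out and the spread came from the sorts, 18 of 78 members passed on day 3 (23.1%, 16 of them lower), beside 38.4% of all genes, and when day 3 was left out no member did, beside 7.53%.

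The 2 dye orientations differed. With the deleted RNA in Cy3 the member median was -0.37 on day 3 and -0.21 on day 5, and with it in Cy5 -0.022 and 0.0026. In each Cy3 array 68 of 78 members were below 0, in the Cy5 arrays 42 and 38. Uqcrh, the acidic hinge protein of complex III, is an example, with -0.98 and 0.85 on the 2 day 3 arrays around a mean of -0.063. In sorts 1 and 2 the member medians were -0.15 and -0.18 with the GFPhi RNA in Cy3. With it in Cy5 they were -0.063 and -0.059. The 348 other genes at least as bright as the median member had medians of -0.24 on day 3 and -0.10 on day 5, beside -0.18 and -0.12 for the members, while in the sorts they lay at 0.078 and 0.20, on the other side of 0 from the members. The shift given above is the mean of both dye orientations. Whether the dye effect is equal and opposite in them, and so cancels, was not tested. Nor was the part of brightness in the shift.

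**Figure D3:**
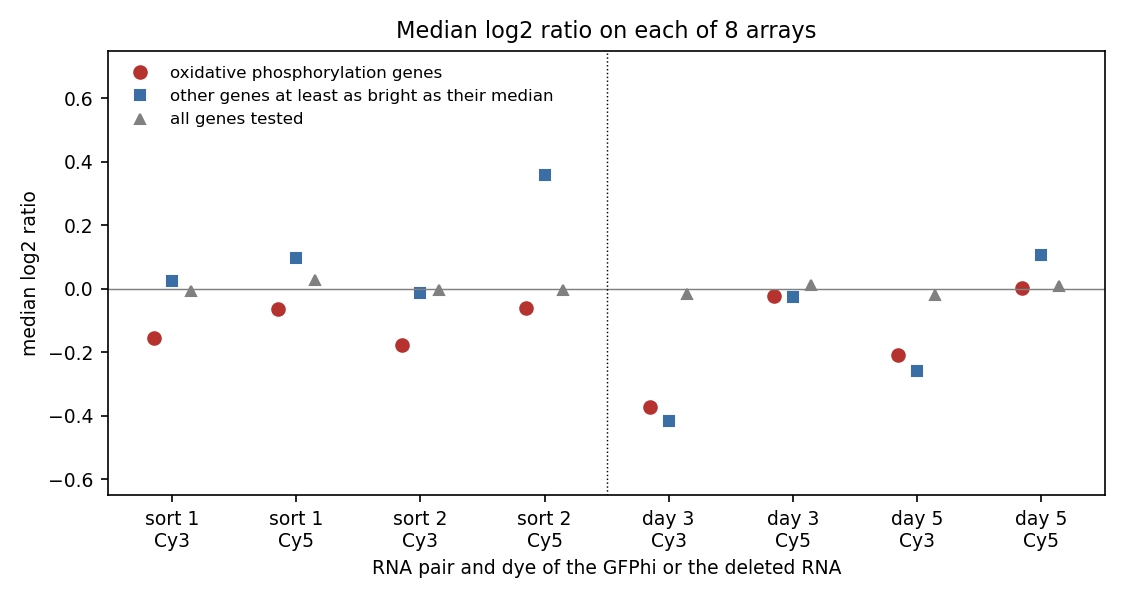
Median log2 ratio on each of the 8 arrays for the oxidative phosphorylation genes, for other genes at least as bright as their median and for all genes tested, labelled by RNA pair and by the dye of the GFPhi or the deleted RNA. In the deletion the medians of members and of other bright genes lie low together on the Cy3 arrays, from -0.42 to -0.21, and in the sorts the members lie below the other bright genes on all 4 arrays.

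By complex, the deletion medians over both days were -0.13 for complex I, -0.016 for II, -0.13 for III, -0.19 for IV and -0.16 for V. On all 4 deletion arrays 10 of 34 tested members of complex I and 6 of 13 of complex IV were below 0. That stands beside 24.4% of all members tested and 13.3% of all genes. Ndufs5, an accessory subunit of complex I, had the smallest p among members, at -0.41 on day 3 and -0.31 on day 5 (mean -0.36, SE 0.083, limma adjusted p 0.457), and its 4 arrays read -0.65, -0.18, -0.55 and -0.073. Ndufb6 was at -0.47 and -0.18, Ndufb2 at -0.34 and -0.25, Ndufc1 at -0.35 and -0.20, Ndufa5 at -0.44 and -0.11, and the core subunit Ndufs8 at -0.51 and -0.12. In all 5 the day 3 value was the lower one. Ndufa11 alone was above 0 on all 4 arrays, at 0.24 and 0.15, and its second probe gave 0.38 and 0.11.

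Cox7a1 was low in this comparison too. Its values were -1.06 and -0.54 on the day 3 arrays and -0.36 and -0.42 on those of day 5, a 1.74-fold and a 1.31-fold lower level in deleted tissue (mean -0.60, SE 0.14, limma adjusted p 0.462). Cox7a2 was at -0.19 and -0.25. Cox6a2, the muscle isoform of subunit 6a, was at -1.10 on day 3 and -0.29 on day 5 on a dim probe, and the common Cox6a1 at -0.29 and -0.084 on a probe whose dye orientations disagreed in sign. Of the muscle markers, Des, Ckm and Myh6 were not well above background in either comparison, Acta2, Actg2, Tagln and Myh11 lay between -0.027 and 0.28 on both days, and Cnn1 went from -0.14 on day 3 to 0.46 on day 5 (limma adjusted p 0.0237 for the difference). Their part in the values of these isoforms was not tested.

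Among the common subunits of complex IV, Cox6b1 was at -0.29 on day 3 and -0.12 on day 5, Cox7b at -0.23 and -0.088 and Ndufa4 at -0.31 and -0.14. Cox6c, Cox7c and Cox8a were lower on day 5, at -0.25, -0.40 and -0.15 against 0.061, -0.079 and 0.19, and these differences did not pass the test. Cox7a2l, the high member of the sorts, was at 0.20 and -0.15, and the other related proteins Atp5s and Ndufa12l had means of -0.17 and -0.25.

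In complexes II, III and V the means lay closer together. The 4 Sdh genes had means between -0.076 and 0.0012, and Cycs was at -0.11 and 0.13. In complex III the lowest mean was that of Uqcrq, -0.21, followed by Uqcr at -0.17, and Uqcrc1 was at -0.14. In complex V the lowest was that of Atp5g1, -0.29, followed by Atp5k, Atp5j and Atp5e at -0.25, -0.23 and -0.23. Atp5g2 and Atp5g3, which lay apart in the sorts, had means of -0.20 and -0.16 here. All 15 complex V genes were below 0 on day 5 and 14 of 15 on day 3, with the narrow range of -0.29 to -0.060 in their means. Probes of 1 gene disagreed in sign in the deletion for 5 of 23 members, Atp5j2, Ndufa3, Ndufb2, Uqcrh and Uqcrq.

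Both comparisons, which share no RNA, can be set side by side over the 77 members tested in each. Of these, 50 (64.9%) had a mean below 0 in both, beside 2583 of 10345 genes, and 35 (45.5%) were below 0 in all 4 RNA pairs, beside 6.99%. Lower on all 8 arrays were 7, beside 180 of the 10345 genes: Ndufa5, Ndufb2, Ndufb6, Ndufc1, Ndufs5, Cox7a1 and Cox7a2. Of the 348 other bright genes, 37.4% had a mean below 0 in the sorts and 74.4% in the deletion. For the members these shares were 71.4% and 89.7%. Across the members the 2 sorts had a correlation of 0.67 and the 2 days one of -0.015, against 0.61 and -0.027 across all genes, a description over genes that share arrays and dyes.

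The deletion was then followed from day 3 to day 5, in a fit whose spread comes from the sorts. By value alone, 50 of 78 members lay higher on day 5 and 28 lower, beside 8006 and 7991 of 15997 genes. Counts here and in the lists by function below take higher or lower as an adjusted p under 0.05 in limma's test of this difference. Each day has 1 RNA pair and is assumed to vary as the sorts do, so the p-values compare these RNA pairs, and the spread between animals of a day was not measured. Among all genes 15.6% were higher and 12.4% lower on day 5 than on day 3 in deleted over control tissue, whereas 2 members (2.56%) were higher and 2 (2.56%) lower. Cox6b2, the testis isoform of subunit 6b, was at 1.20 in the RNA pair of day 3 and -0.11 in that of day 5 (limma adjusted p 0.0079). Its day 3 arrays read 0.94 and 1.45 and its day 5 arrays -0.26 and 0.035, each the 2 dye orientations of 1 RNA pair. Ndufa6, an accessory subunit of complex I, was at 0.54 and -0.19 (adjusted p 0.0355), with 0.48 and 0.59 against -0.15 and -0.23 on single arrays.

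Cyc1, the heme-bearing subunit of complex III, read -0.45 in the day 3 pair and 0.22 in that of day 5 (adjusted p from limma 0.0191), with -0.70 and -0.20 on day 3 and -0.085 and 0.52 on day 5. Cox6a2 was at -1.10 and -0.29 (adjusted p 0.0133), with -1.11 and -1.09 against -0.22 and -0.35. For Cox6a2 the spread is taken from sorts in which it was not above background, and for Cox6b2 from dim spots. With the processed signals of the scanner software, or with median centring, none of the 4 passed the test, and with the deposited series matrix Cox6b2 and Cox6a2 did. Over all 78 members the median of the day difference was 0.066.

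**Figure D4:**
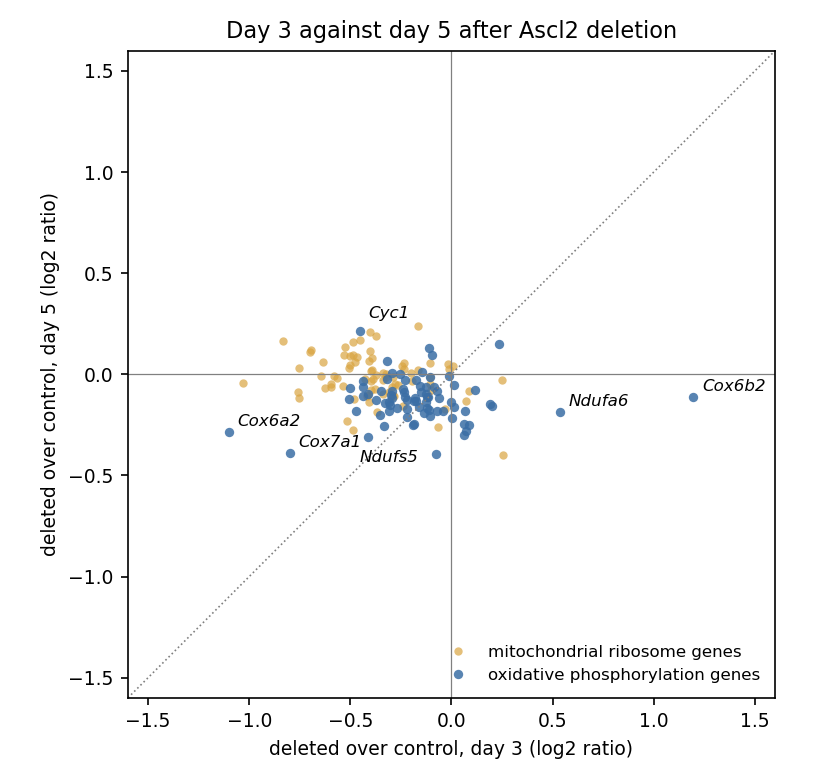
Log2 ratios of deleted over control tissue on day 3 (horizontal) and day 5 (vertical) for 78 oxidative phosphorylation genes and 78 mitochondrial ribosome genes, with a dotted line where both days are equal. The members gather just below 0 on both days, whereas the ribosome genes lie left of 0 on day 3 and around 0 on day 5.

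Other mitochondrial genes were read from lists by function, and their counts in the same fit stand beside the 15.6% and 12.4% of all genes higher and lower on day 5. The 78 genes of the mitochondrial ribosome, which translates the subunits encoded in mitochondrial DNA, had a median of -0.39 on day 3, with 73 below 0, and -0.015 on day 5. Of them 25 (32.1%) were higher and 1 (1.28%) was lower on day 5, among them Mrps6 (-0.84 to 0.17), Mrpl38 (-0.70 to 0.11) and Mrpl57 (-0.53 to 0.14). Their probes were dimmer than those of the subunit genes, with a median of 12.09, and the difference between the lists was not tested. Of 33 genes for carriers and protein import 12 (36.4%) were higher on day 5 and none was lower, with medians of -0.34 and 0.0028, and the chaperonin Hspe1 went from -1.05 to -0.032. Of 42 assembly factors 6 (14.3%) were higher, near the share of all genes, and 1 (2.38%) was lower, with medians of -0.28 and -0.047, among them the complex I factors Ndufaf4 (-0.98 to 0.24) and Ndufaf6 (-0.79 to -0.045).

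Among 19 tested regulators of mitochondrial biogenesis 6 (31.6%) were higher and 1 (5.26%) was lower on day 5, with medians of -0.41 and 0.012. The coactivator Pprc1 went from -1.39 to 0.30 and Myc, which drives growth, from -1.32 to 0.012. The mitochondrial DNA factors Tfam and Tfb1m were at -0.48 and -0.54 on day 3 and at -0.30 and -0.38 on day 5, and did not pass the test for a difference between the days. In the citric acid cycle 1 of 21 genes was higher (Dlat, -0.55 to 0.43) and 1 lower (Pcx, 0.75 to -0.15). Of 25 genes of glycolysis and its control 3 were higher and 2 lower: Hk2, a hexokinase, went from -0.46 to 1.39 and Pdk4, which shuts pyruvate out of the citric acid cycle, from 1.84 to -2.36. Of 13 genes of redox defence and uncoupling 4 were higher and 3 lower, among them the peroxidase Prdx3 (-0.56 to 0.087) and catalase, Cat (0.40 to -1.19). Some genes of these lists read alike on both days, such as Pfkfb3 at 1.26 and 1.26, Idh2 at -0.58 and -0.43 and Nnt at -0.31 and -0.46.

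In the sorts the medians of these lists also lay close to 0, and none of their genes passed the test. Their medians in sorts 1 and 2 were -0.086 and -0.11 for the mitochondrial ribosome, -0.087 and -0.053 for assembly factors, 0.027 and -0.14 for the citric acid cycle and -0.14 and -0.032 for glycolysis. Single genes reached further: the lactate dehydrogenase Ldha was at -0.53 and -0.72, the adenine nucleotide carrier Slc25a4 at 0.71 and 0.44 and the complex IV assembly factor Cox16 at -0.36 and -0.43. Of the subunits that the rule did not take in by their names on the array, Ndufab1, the acyl carrier protein of complex I, was at -0.31 and -0.27, Cox4i1 at 0.060 and 0.31 and Uqcr10 at 0.22 and 0.17. Cox4i2 was not well above background in either comparison.

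**Figure D5:**
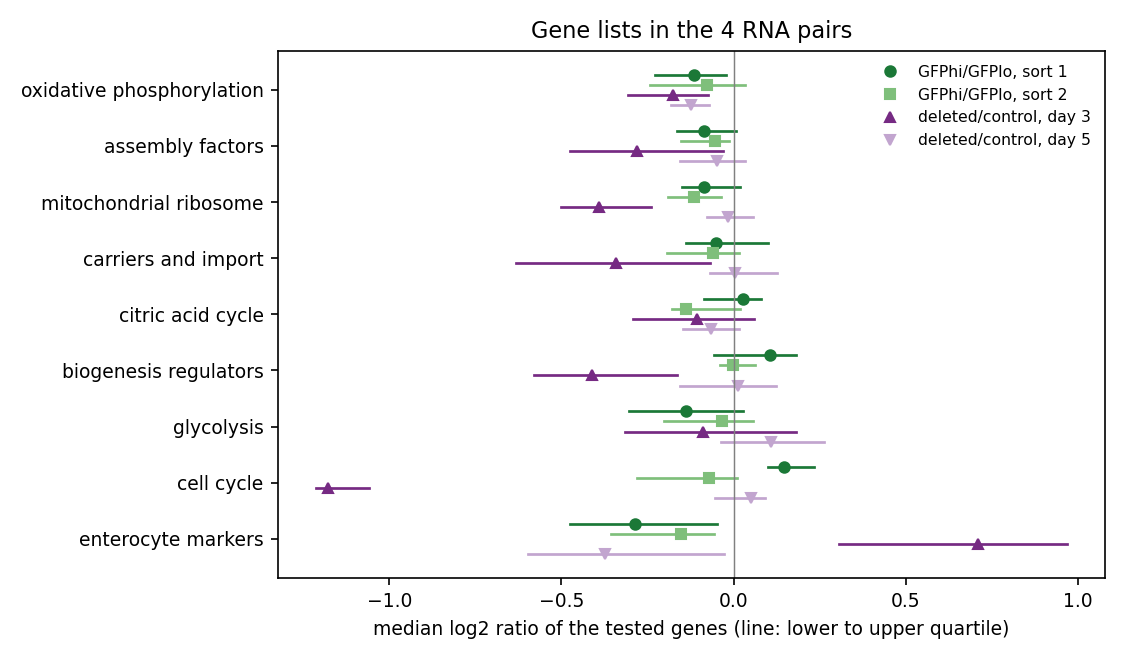
Median log2 ratio (symbol) and the range from the lower to the upper quartile of the genes (line) of the oxidative phosphorylation genes and 8 other lists in the 4 RNA pairs. The subunit genes stay between -0.18 and -0.077 in all 4 pairs, while on day 3 the cell cycle list lies at -1.18 and the enterocyte markers at 0.71.

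Markers of several cell types differed in both comparisons, though in the sorts none of them passed limma's test over all RNA pairs. Since these are bulk samples, fewer cells of a type and less RNA per cell cannot be told apart. In the sorts the median of 17 tested enterocyte markers was -0.29 and -0.15 and that of 8 goblet cell markers -1.67 and -1.19. For 14 stem cell markers, with the sorting gene Lgr5 among them, it was 0.86 and 0.58, and for 9 Paneth cell markers -0.37 and -0.034. The 11 enteroendocrine markers had medians of -1.66 and -0.46, and 11 of 11 were lower on all 4 arrays. In the deletion the 24 enterocyte markers had medians of 0.71 on day 3 and -0.37 on day 5. By value, 24 of 24 were lower on day 5 than on day 3, beside 7991 of 15997 genes. The 24 cell cycle genes had medians of -1.18 and 0.052, with 24 of 24 higher by value on day 5. Medians of the 9 Paneth cell markers were -1.18 and 0.13. The 10 T cell genes had medians of 0.95 on day 3, with 10 of 10 above 0, and -0.036 on day 5, and the 3 red cell genes 1.36, with 3 of 3 above 0, and 0.21. Of 10 tested genes of fibroblasts and smooth muscle 8 were higher by value on day 5, beside 8006 of 15997 genes. The collagen gene Col1a1 was at -0.92 on day 3 and 4.81 on day 5. The part of these cell types in the values of the subunit genes was not tested.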

How the data were processed

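RNA of 4 RNA pairs was read on 8 two-colour arrays, 2 dye orientations each. Per the file headers, the scanner software was Agilent Feature Extraction 9.5.3.1, the scanner files hold spot intensity values on a linear scale and the log10 ratio of Cy5 over Cy3, and probe positions are those of mm8 (NCBI36). The deposited series matrix holds log2 ratios that correlated with the turned scanner log ratio at 0.964 to 0.999 and had medians of -0.0224 to 0.0347, and whether the authors centred it stays unknown. The day 5 files hold rounded values and altered symbols, so names came from the day 3 files by feature number.

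The background was corrected with normexp (offset 50) and dyes balanced by loess within arrays, with control spots at weight 0 and outlier spots left out. Ratios were turned by the dyes of the labels, spots of a probe and dye swaps were averaged, and limma 3.58.1 (R 4.3.3, statmod 1.5.0, version 1.17.8 of data.table) fitted all 4 RNA pairs with 1 coefficient per comparison, or 1 per day for the day difference. Genes entered a test if 1 of the 2 RNAs, or both, gave a signal well above background on all arrays of the comparison. Adjusted p values are two-sided Benjamini-Hochberg values over all genes tested, with a threshold of 0.05. P-values measure the spread between these RNA pairs, and each sort pools mice. The fit was run on simulated data with the spread of the sorts and with changes larger than any seen in a member. Deleted over control was not scored there.

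Members, gene lists, motifs and tests were chosen with earlier results of these data known. Named were Ascl2 and Lgr5, members past a test, the 8 largest ratios each way with 1 sign on all 4 arrays, the 3 smallest p per complex, isoform families, members against their complex, cytochromes and Sdh genes, and the leading 2 genes of each list. Myc, Col1a1 and further genes of the lists were added after their values were seen. Promoters came from RefSeq (GRCm38.p6), and 14 members had no entry. Values of 1 member are not reported here by name.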

Additional observations from a re-analysis of the deposited data

Results flagged for a closer look

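Of the members that led a comparison, 11 were examined over the 4 arrays of each comparison, in 20 groups of arrays, for 1 array far from the others. Cox6b2 in GFPhi over GFPlo cells had such an array, at 0.27 with the GFPhi cells of sort 1 in Cy5, while the other 3 lay between 0.024 and 0.050. About 1 in 20 groups shows such a gap by chance.

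For 4 members the RNA pairs of the 2 days differed in limma's test of the difference itself. Each day is 1 RNA pair, the spread is that between the sorts, and 28.0% of all genes tested passed, so the spread between animals of a day was not measured. The day 5 value minus that of day 3 was -1.31 for Cox6b2 (adjusted p 0.0079) and -0.73 for Ndufa6 (adjusted p 0.0355). It was 0.81 for Cox6a2 (adjusted p 0.0133) and 0.67 for Cyc1 (adjusted p 0.0191). In these 4 genes, picked by that difference, the arrays of day 3 did not overlap those of day 5. Both arrays of a day share 1 RNA pair, so this adds no support.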

How the results depend on the processing

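The number of members called in the sorts, 0, stayed 0 in 11 of 14 alternatives. It was 1 with the comparison fitted alone (1.3% of members, beside 0.63% of all genes). Without day 3, or without day 5, it was 2 (2.6%, beside 1.22%). In the deletion it stayed 0 in 13 of 14, and ran from 0 to 18 with 1 RNA pair left out. The 18 came without day 5, where 1 RNA pair of the deletion remained and the spread came from the sorts. They were 23.1% of members, beside 38.4% of all genes, so members were called less often than genes in general. For the day difference the main count was 4. It was 0 with processed signals and 0 with median centring (which call 0.313% and 0% of all genes), 2 with the series matrix (2.56% of members, beside 12.3% of all genes) and 12 with the 8 arrays kept apart and their RNA pair as a random effect (15.4%, beside 48.6%). With that effect 38 genes passed in the sorts and 262 in the deletion, and no member did. The member median in the sorts, -0.097, was -0.17 with processed signals, -0.16 with the series matrix and -0.29 with median centring. That of the deletion, -0.14, was -0.33 with median centring and otherwise ran from -0.18 to -0.11. Median centring, which moves the median of all genes to 0.11 and -0.12 in sorts 1 and 2, placed the members at 0.025 and -0.58. Relative to all genes the members thus lay at -0.082 in sort 1, beside -0.13 with loess. In sort 2 they lay at -0.46, beside -0.075 with loess. The cause was not tested. No direction of the 12 named gene results turned in any alternative. Leaving out a pair could not be fitted for the day difference. Slide and RNA pair cannot be told apart, so no slide block was run. No paired analysis was possible because the labels pair no samples across groups beyond the shared arrays. Precision is limited by how few arrays there are.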
